A study of Homo sapiens with 6 samples.

Results

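The genes MRFAP1, MRFAP1L1, MORF4L1 and MORF4L2 were followed across HCT116 cells with and without overexpression of the small nucleolar RNA SNORA28. These 4 genes, of 60612 listed, form a family of chromatin regulators and the small proteins that bind them. The list was chosen by the measured MRFAP1L1 level, which was higher in the SNORA28 libraries, so the values of MRFAP1L1 are given as a description, with no test, and the other 3 genes were added by name. All 4 passed a filter of a mean of at least 1 FPKM (fragments scaled to transcript length and to all mapped fragments of a library) over the 6 libraries, which left 12076 genes for testing.

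HCT116 is an established human colorectal carcinoma cell line. The control group, LV-NC, had been infected with a negative control lentivirus, and the other group, LV-SNORA28, with a lentivirus that overexpresses SNORA28, a guide RNA of the H/ACA class. All libraries were made from oligo(dT)-purified RNA, with 3 libraries in each group, so the controls too had been exposed to lentivirus. The labels do not say that the libraries of a group came from separate cultures, so the p-values below measure only the spread between these libraries. The design asks which transcripts differ in level when SNORA28 is raised. In bulk RNA, fewer cells of a kind and less RNA per cell cannot be told apart.

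MORF4L1, also called MRG15, reads methylated lysine 36 of histone H3 through a chromodomain and is a subunit of both the NuA4/TIP60 acetyltransferase complex and a SIN3 histone deacetylase complex. MORF4L2, also called MRGX, shares the MRG protein-binding domain and lacks the chromodomain. MRFAP1 is a small nuclear protein that binds the MRG domain of MORF4L1 and is turned over through NEDD8-dependent cullin-RING ubiquitin ligases, and MRFAP1L1 is its close relative.

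The labels held for SNORA28 itself, which measured 0.92, 0 and 0.64 FPKM in LV-NC and 15.01, 13.66 and 15.2 FPKM in LV-SNORA28. Of 9 colon epithelial markers, 8 reached 1 FPKM in every library, the exception being VIL1, and their summed level was 809.3 to 895.4 FPKM in LV-NC and 825.6 to 876.9 FPKM in LV-SNORA28. Of 9 blood, endothelial and stromal markers, 7 stayed below 1 FPKM in every library, DCN at 0 throughout, and the list summed to 4.3 to 6.64 FPKM in LV-NC and 6.52 to 7.4 FPKM in LV-SNORA28, mostly from COL1A1 and CD68. The read depth of the libraries is unknown, because only FPKM values were used. The FPKM total was 334707 to 374676 in LV-NC and 306048 to 320362 in LV-SNORA28, and mitochondrially encoded genes held 42.7% to 47.7% of it in LV-NC and 35.9% to 38.3% in LV-SNORA28. Across the genes tested, log2 fold changes (LV-SNORA28 minus LV-NC) had a median of 0.09, and 66.7% lay above 0. The part of these shifts in the differences below was not tested beyond rescaling the values.

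MRFAP1L1 and MRFAP1 lie 69.77 kb apart, measured between start sites, on chromosome 4 and on opposite strands. MRFAP1L1 (ENSG00000178988) occupies chr4:6707701-6709865 on the minus strand and MRFAP1 (ENSG00000179010) chr4:6640091-6642729 on the plus strand, in GENCODE release 44 on GRCh38. Each canonical transcript has 2 exons, 1 of them coding, and each encodes 127 codons. Their coding sequences aligned with 88.1% identity over 387 columns. The stretches below are 150 bases of coding sequence from each gene, the length of 1 read, shown because they hold the longest run of bases that the pair shares. Capitals mark the 127 bases that are the same in both and lower case the 23 that differ. The MRFAP1L1 stretch lies at chr4:6709340-6709489 (minus strand) and the MRFAP1 stretch at chr4:6641003-6641152 (plus strand).
MRFAP1L1: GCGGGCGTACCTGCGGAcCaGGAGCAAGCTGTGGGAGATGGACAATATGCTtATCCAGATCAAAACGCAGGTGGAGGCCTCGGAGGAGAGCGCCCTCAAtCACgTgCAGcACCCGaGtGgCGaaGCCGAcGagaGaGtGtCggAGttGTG
MRFAP1: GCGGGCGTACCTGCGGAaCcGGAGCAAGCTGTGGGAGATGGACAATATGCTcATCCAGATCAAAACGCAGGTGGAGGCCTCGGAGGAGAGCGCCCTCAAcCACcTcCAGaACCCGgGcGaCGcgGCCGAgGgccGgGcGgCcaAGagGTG

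That run was 47 bases long. None of the 1529 windows of 50 bases in the MRFAP1L1 transcript, and none of the 1525 in the MRFAP1 transcript, occurred in a transcript of any other annotated gene. Full-length reads from these genes therefore differ in sequence, as the transcripts are annotated.

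MRFAP1L1 measured 11.81, 11.28 and 10.61 FPKM in LV-NC and 27.23, 29.67 and 30.24 FPKM in LV-SNORA28. Every LV-SNORA28 library lay above every LV-NC library, and the libraries within each group stayed close together. The mean was 11.2 ± 0.601 FPKM in LV-NC and 29.05 ± 1.60 FPKM in LV-SNORA28 (SD, n = 3 each), a ratio of 2.59. On the log2(FPKM + 1) scale the difference was 1.30 (SE 0.07), which placed it at position 33 among the 12076 genes tested, counted from the most positive. This is the value that chose the list.

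MRFAP1 showed no such separation. It measured 85.77, 103.96 and 99.7 FPKM in LV-NC and 96.35, 105.98 and 31.27 FPKM in LV-SNORA28. LV-SNORA28 replicates 1 and 2 lay within or just above the LV-NC range, and replicate 3 alone was low, more than 2 times below every other library. The mean was 96.5 ± 9.51 FPKM in LV-NC and 77.9 ± 40.6 FPKM in LV-SNORA28 (SD, n = 3 each). The log2 fold change was -0.48 (95% interval -1.54 to 0.57), and limma gave an adjusted p of 0.522. Leaving out LV-SNORA28 replicate 3 gave 0.07 (adjusted p 0.746 in limma), so the direction rested on that library.

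The low MRFAP1 value was set beside the rest of its library. Of 6241 genes whose mean reached 5 FPKM, 12 (0.192%) were more than 2 times lower in LV-SNORA28 replicate 3 than in the lowest of the 5 other libraries, MRFAP1 being 1 of them. The same count was 28, 16 and 11 in the LV-NC libraries and 4 and 6 in LV-SNORA28 replicates 1 and 2. Drops of this kind thus occurred in each library, and LV-SNORA28 replicate 3 held neither the most nor the fewest. Why MRFAP1 was low in that library was not tested.

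**Figure D1:**
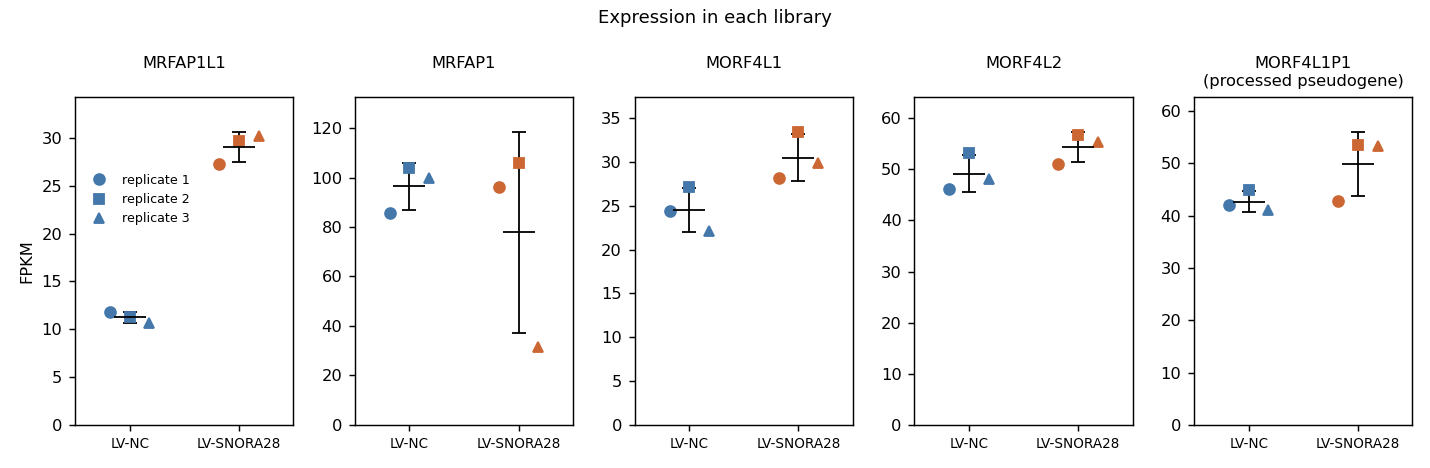
FPKM (vertical axes, each starting at 0 with its own scale) of the 4 genes and the pseudogene MORF4L1P1 in every library. Symbols mark the replicate number, horizontal ticks the group mean and bars 1 SD (n = 3). MRFAP1L1 separates the groups without overlap, at 10.61 to 11.81 against 27.23 to 30.24 FPKM, and MRFAP1 shows the single low library at 31.27 FPKM.

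MORF4L1 (ENSG00000185787; chr15:78810487-78898139, plus strand) encodes the chromodomain protein itself. It measured 24.44, 27.12 and 22.12 FPKM in LV-NC and 28.19, 33.46 and 29.88 FPKM in LV-SNORA28. The lowest LV-SNORA28 value lay just above the highest LV-NC value, so the groups did not overlap. Groups that did not overlap, with LV-SNORA28 higher, were found for 27.0% of all genes tested. The mean was 24.6 ± 2.50 FPKM in LV-NC and 30.5 ± 2.69 FPKM in LV-SNORA28 (SD, n = 3 each). The log2 fold change of 0.30 (95% interval 0.07 to 0.54) did not pass the test, with an adjusted p of 0.104 in limma.

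MORF4L2 (ENSG00000123562; chrX:103675496-103688158, minus strand) differed less between the groups. It measured 46.1, 53.17 and 48.1 FPKM in LV-NC and 51.06, 56.74 and 55.37 FPKM in LV-SNORA28. The ranges overlapped, because LV-NC replicate 2 exceeded LV-SNORA28 replicate 1. The mean was 49.1 ± 3.64 FPKM in LV-NC and 54.4 ± 2.96 FPKM in LV-SNORA28 (SD, n = 3 each). The log2 fold change was 0.15 (95% interval -0.04 to 0.33), with an adjusted p of 0.268 in limma.

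Of the 3 genes other than MRFAP1L1, 0 had an adjusted p below 0.05 in limma and 1, MORF4L1, had an unadjusted p below 0.05. Over all genes tested, 8.91% had an adjusted p below 0.05 in either direction, 6.81% were called higher in LV-SNORA28, and 28.0% had an unadjusted p below 0.05. The intervals leave room for changes of either sign in MRFAP1 and MORF4L2, so these 6 libraries do not show that those levels were the same.

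**Figure D2:**
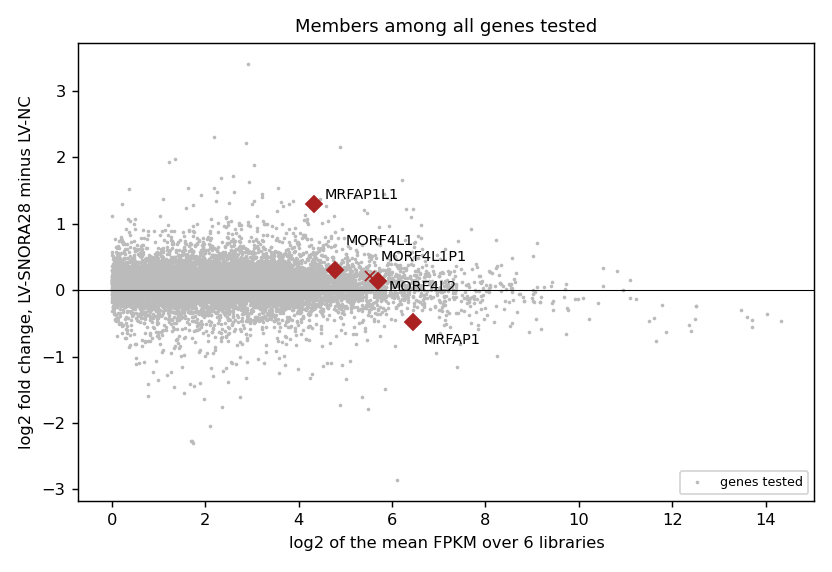
Log2 fold change on the log2(FPKM + 1) scale (LV-SNORA28 minus LV-NC, vertical) against the log2 of the mean FPKM over 6 libraries (horizontal) for the 12076 genes tested, in grey. Red diamonds mark the 4 genes and a red cross MORF4L1P1. MRFAP1L1, at 1.30, the value that chose the list, stands above most genes of its level. MORF4L1 (0.30) and MORF4L2 (0.15) lie within the grey band.

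The levels of the genes were also set beside each other within each library. In all LV-NC libraries and in LV-SNORA28 replicates 1 and 2, the order of FPKM levels was MRFAP1, MORF4L2, MORF4L1 and MRFAP1L1, from high to low. In LV-NC the means of neighbours in this order differed by more than their SDs. In LV-SNORA28 the ranges of MORF4L1 and MRFAP1L1 overlapped, and MRFAP1 could not be placed because of its spread. In LV-SNORA28 replicate 3, MORF4L2 was the highest, and MRFAP1, MRFAP1L1 and MORF4L1 followed at 31.27, 30.24 and 29.88 FPKM.

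The ratio of MRFAP1 to MRFAP1L1 was 7.26, 9.22 and 9.4 in the LV-NC libraries and 3.54, 3.57 and 1.03 in the LV-SNORA28 libraries. MRFAP1 thus stayed the more abundant transcript of the pair in every library, narrowly so in LV-SNORA28 replicate 3. The ratio of MRFAP1L1 to MORF4L1 was 0.483, 0.416 and 0.48 in LV-NC and 0.966, 0.887 and 1.01 in LV-SNORA28. These ratios contain the MRFAP1L1 value that chose the list and are given as a description. The ratio of MORF4L2 to MORF4L1 was 1.89, 1.96 and 2.17 in LV-NC and 1.81, 1.7 and 1.85 in LV-SNORA28. The ratios with MORF4L1, and its place in the order above, rest on a level left uncertain by the near-copy MORF4L1P1 described below.

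**Figure D3:**
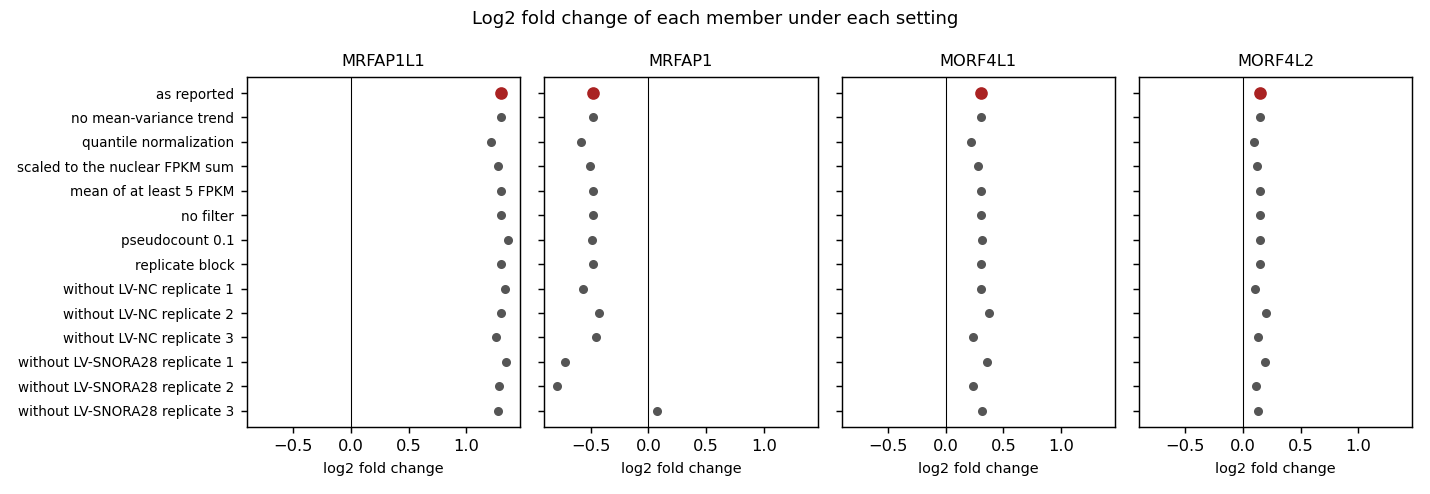
Log2 fold change (horizontal axis, LV-SNORA28 minus LV-NC) of each of the 4 genes under each way of processing the values (vertical axis), with the reported value in red. MRFAP1L1 stays between 1.21 (quantile normalization) and 1.36 (pseudocount of 0.1), and MRFAP1 moves to 0.07 when LV-SNORA28 replicate 3 is left out.

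MORF4L1 has a near-copy that was listed at a higher level than the gene itself. MORF4L1P1 (ENSG00000218283; chr1:220253570-220254536, plus strand) is a processed pseudogene, an intronless copy of an mRNA inserted elsewhere in the genome. The best alignment of the MORF4L1 and MORF4L1P1 transcripts covered 967 columns with 7 mismatches, an identity of 99.3%. The stretches below are 120 bases around 1 of these differences, which is in capitals. They are shown because a read within the aligned part, taken without its mate, can be told apart only where it covers such a base. The MORF4L1 stretch lies in coding exon sequence at chr15:78894058-78894177 and the MORF4L1P1 stretch at chr1:220254199-220254318, both on the plus strand of GRCh38.
MORF4L1: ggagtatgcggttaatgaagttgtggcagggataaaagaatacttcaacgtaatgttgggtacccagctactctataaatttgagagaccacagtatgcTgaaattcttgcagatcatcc
MORF4L1P1: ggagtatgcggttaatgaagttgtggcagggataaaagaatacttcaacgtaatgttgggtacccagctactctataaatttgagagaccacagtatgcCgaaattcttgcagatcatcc

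Of the 2023 windows of 150 bases in the canonical MORF4L1 transcript, 184 (9.1%) also occurred in MORF4L1P1. With windows of 50 bases, 621 of 2123 (29.3%) occurred in transcripts of 3 other genes, 610 of them in MORF4L1P1. MORF4L1P1 measured 42.03, 44.92 and 41.03 FPKM in LV-NC and 42.78, 53.47 and 53.42 FPKM in LV-SNORA28. LV-SNORA28 replicate 1 lay within the LV-NC range and the other two above it. The log2 fold change was 0.21 (95% interval -0.02 to 0.45), with an adjusted p of 0.218 in limma. How the authors' counting divided reads between these loci is not given in the sources used here, so the levels of MORF4L1 and MORF4L1P1 are uncertain.

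The other loci named after these genes were near 0. MORF4, the processed pseudogene on chromosome 4 from which the family takes its name, measured 0.22, 0.67 and 0.26 FPKM in LV-NC and 0.25, 0.35 and 0.63 FPKM in LV-SNORA28. The antisense gene MORF4L2-AS1 ranged from 0.04 to 0.26 FPKM, MRFAP1P1 from 0.02 to 0.1 FPKM and MORF4L1P3 from 0 to 0.02 FPKM. MORF4L1P4, MORF4L1P5, MORF4L1P6, MORF4L1P7 and MORF4L2P1 were listed at 0 in every library. MORF4L2 shared no window of 50 bases with another gene. Its coding sequence was 64.9% identical to that of MORF4L1 over 1035 aligned columns, of which 231 were gaps. The best local alignment of the whole mRNAs gave 77.9% over 1590 columns.

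The proteins that work with this family were described from 4 lists holding 67 genes, all of which passed the filter. Of these, 3 (4.48%) rose and 0 fell in limma, against 8.91% called in either direction over all genes tested. The median log2 fold change of the 67 genes was 0.10, beside 0.09 over all genes tested. Of the 67, 54 lay above 0, beside 66.7% of all genes tested. At an unadjusted p below 0.05 there were 11, beside 28.0% of all genes tested.

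The NuA4/TIP60 complex acetylates histones H4 and H2A and contains MORF4L1. Of its 17 listed genes, 0 were called in limma and 4 had an unadjusted p below 0.05, beside 8.91% and 28.0% of all genes tested. Their median log2 fold change was 0.10, with a range of -0.02 to 0.39. MRGBP, the subunit that binds the MRG domain, measured 19.19, 21.85 and 19.82 FPKM in LV-NC and 20.0, 20.91 and 18.97 FPKM in LV-SNORA28. KAT5, the catalytic subunit, measured 12.53, 14.99 and 14.47 FPKM in LV-NC and 13.98, 14.24 and 13.84 FPKM in LV-SNORA28. For both genes the values of the groups were interleaved, with log2 fold changes of -0.02 and 0.01 (adjusted p 0.877 and 0.971 in limma).

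In the SIN3-HDAC complexes, which remove histone acetylation, 1 of 22 listed genes was called in limma (4.55%), beside 8.91% of all genes tested. An unadjusted p below 0.05 in limma was found for 4 of the 22, beside 28.0% of all genes tested. ING1, a PHD finger subunit that reads methylated lysine 4 of histone H3, measured 2.05, 1.94 and 2.11 FPKM in LV-NC and 3.63, 4.02 and 3.7 FPKM in LV-SNORA28. It rose by 0.66 on the log2 scale (SE 0.07, adjusted p 0.0069 in limma), with no overlap between the groups. SIN3B, a scaffold of the complex, measured 6.47, 4.51 and 5.03 FPKM in LV-NC and 6.24, 6.34 and 6.99 FPKM in LV-SNORA28, with an adjusted p of 0.225 in limma. For the deacetylase HDAC2 the log2 fold change was 0.07 (adjusted p 0.552 in limma).

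Of 13 genes for methylation of lysine 36 of histone H3 and for other partners of MORF4L1, 0 were called in limma and 1 had an unadjusted p below 0.05, beside 8.91% and 28.0% of all genes tested. ASH1L, a methyltransferase for this lysine that MORF4L1 binds, measured 7.86, 5.01 and 6.78 FPKM in LV-NC and 6.8, 5.9 and 7.75 FPKM in LV-SNORA28, with interleaved values. PALB2, a homologous recombination protein that MORF4L1 also binds, measured 4.22, 3.71 and 4.16 FPKM in LV-NC and 4.16, 4.53 and 4.9 FPKM in LV-SNORA28. Their adjusted p-values in limma were 0.839 and 0.336.

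NEDD8 conjugation enzymes and cullin-RING ligase cores act in the turnover of MRFAP1. Here 2 of 15 listed genes (13.3%) rose in limma, beside 6.81% of all genes tested. The same 2 were the only ones with an unadjusted p below 0.05 in limma, beside 28.0% of all genes tested. In 3 of the 15, LV-SNORA28 was higher without overlap, beside 27.0% of all genes tested. NAE1, a subunit of the enzyme that activates NEDD8, measured 13.35, 14.43 and 14.59 FPKM in LV-NC and 16.98, 18.39 and 19.16 FPKM in LV-SNORA28, a log2 fold change of 0.34 (SE 0.07, adjusted p 0.0356). CUL1, a cullin scaffold, measured 17.94, 18.38 and 19.41 FPKM in LV-NC and 21.54, 22.54 and 22.84 FPKM in LV-SNORA28, a log2 fold change of 0.25 (SE 0.06, adjusted p 0.0499). Both groups were separate for each gene, but the calls were close to the threshold: leaving out any 1 library raised the adjusted p in limma to between 0.0552 and 0.119 for NAE1 and between 0.0764 and 0.157 for CUL1. NEDD8 itself measured 15.39, 14.35 and 13.41 FPKM in LV-NC and 13.1, 15.55 and 14.01 FPKM in LV-SNORA28, with an adjusted p of 0.921 in limma.

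**Figure D4:**
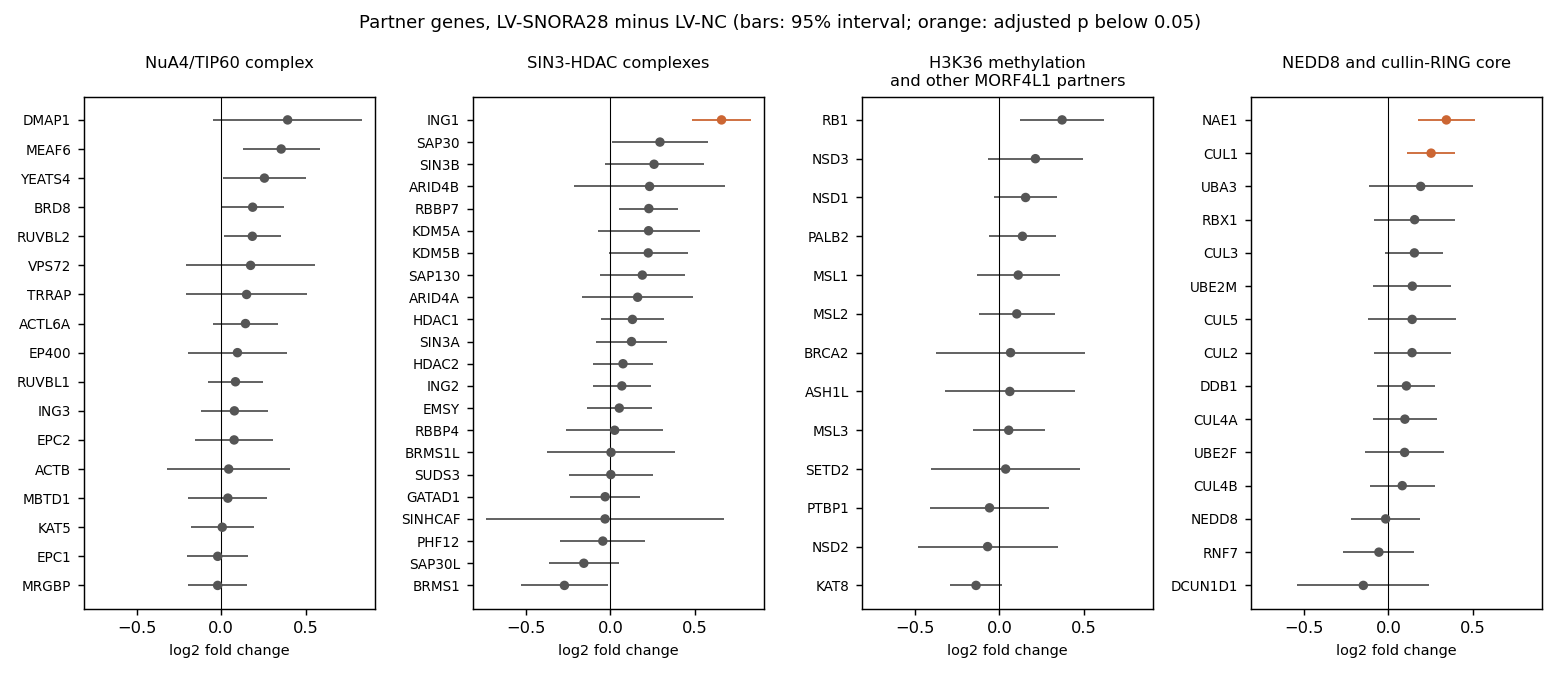
Log2 fold change (horizontal axes, LV-SNORA28 minus LV-NC) of the 67 listed partner genes, with 95% intervals as bars and 1 panel per list. Orange marks an adjusted p below 0.05, reached by ING1, NAE1 and CUL1, and the other genes lie mostly just above 0.

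Of the 12 annotated genes within 100 kb of MRFAP1L1, 5 had a mean of at least 1 FPKM, MRFAP1 among them. Of these 5, 0 passed the test in limma and 0 had an unadjusted p below 0.05, beside 8.91% and 28.0% of all genes tested. BLOC1S4, a subunit of a lysosome-related organelle complex whose start site is 6.31 kb away, measured 6.29, 5.51 and 5.06 FPKM in LV-NC and 5.6, 5.95 and 4.75 FPKM in LV-SNORA28. ENSG00000170846, between MRFAP1 and MRFAP1L1, measured 5.56, 5.84 and 5.42 FPKM in LV-NC and 5.71, 5.92 and 5.95 FPKM in LV-SNORA28. Their log2 fold changes were -0.04 and 0.05 (adjusted p 0.834 and 0.614 in limma).

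KIAA0232 measured 4.63, 2.94 and 3.8 FPKM in LV-NC and 4.76, 3.75 and 5.51 FPKM in LV-SNORA28, with an adjusted p of 0.382 in limma. MAN2B2, a lysosomal mannosidase, measured 6.76 to 7.66 FPKM in LV-NC and 6.5 to 6.68 FPKM in LV-SNORA28. It did not pass the test (log2 fold change -0.11, adjusted p 0.337 in limma). Near MRFAP1, PPP2R2C, a phosphatase regulatory subunit, measured 1.65, 3.95 and 1.46 FPKM in LV-NC and 1.66, 4.41 and 1.79 FPKM in LV-SNORA28. Replicate 2 was the highest library of both groups for that gene.

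**Figure D5:**
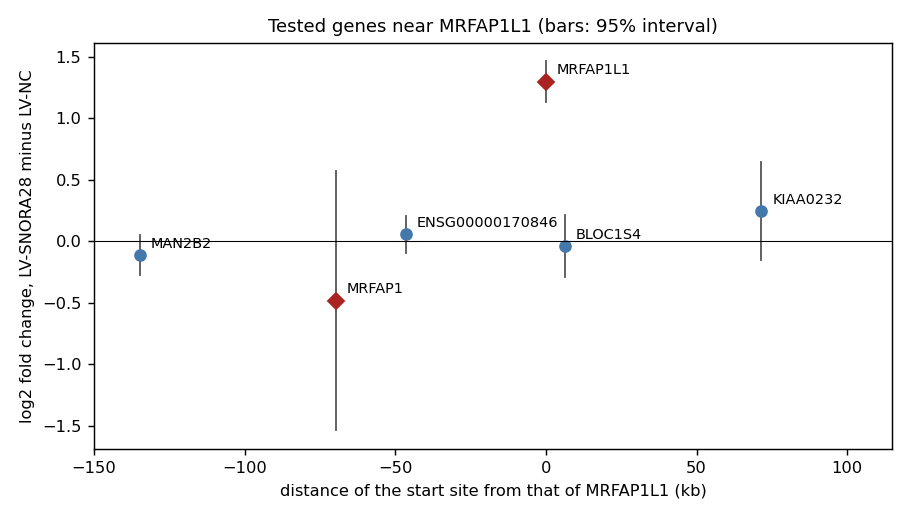
Log2 fold change (vertical axis, LV-SNORA28 minus LV-NC, bars 95% intervals) of tested genes within 100 kb of MRFAP1L1 against the distance of their start sites from its own (horizontal axis, kb). MRFAP1L1, at 1.30, lies well above its neighbours, but this is the value that chose the list. The neighbours run from -0.48 (MRFAP1, 0.07 without LV-SNORA28 replicate 3) to 0.25 (KIAA0232).

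ADAMTS7, a metalloprotease gene on the opposite strand that overlaps the start of MORF4L1, measured 3.54, 2.94 and 2.72 FPKM in LV-NC and 2.26, 2.25 and 2.32 FPKM in LV-SNORA28. Its direction was thus the reverse of that of MORF4L1 (log2 fold change -0.31), with an adjusted p of 0.0924 in limma. Whether the authors counted reads by strand is not given in the sources used here. Of the further neighbours, CTSH near MORF4L1 and TCEAL4 near MORF4L2 had adjusted p-values of 0.491 and 0.44 in limma.

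The genes whose values most resembled those of MRFAP1L1 over the 6 libraries, by Pearson correlation on the log2(FPKM + 1) scale, were CREBL2, PEX19, PAQR5, IFT52 and CTSV, with r from 0.998 to 0.999. CREBL2, a bZIP transcription factor relative, measured 2.83, 2.61 and 2.55 FPKM in LV-NC and 5.95, 6.17 and 6.45 FPKM in LV-SNORA28. PEX19, a chaperone for peroxisomal membrane proteins, measured 4.15, 3.91 and 3.93 FPKM in LV-NC and 7.64, 7.99 and 8.19 FPKM in LV-SNORA28. Against MRFAP1L1, r was -0.436 for MRFAP1, 0.844 for MORF4L1 and 0.713 for MORF4L2. The libraries form separate groups of 3, so these r describe mainly the difference between the groups and carry no test.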

How the data were processed

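For each library the authors deposited a table of FPKM values, normalised to transcript length and to mapped fragments, keyed by Ensembl gene identifiers. The submitters' processing notes name cutadapt 1.9, HISAT2 2.2.1 and StringTie 2.1.6 and the build hg38, and the annotation release is not given in the sources used here. Reads were paired, of 150 bases, from dUTP-stranded libraries. Read depth was unknown and no counting interval was computed. Groups came from the sample titles.

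Symbols, coordinates and transcripts came from GENCODE release 44 (60401 of 60612 identifiers matched). Genes whose mean reached 1 FPKM were compared on log2(FPKM + 1) with limma 3.58.1 in R 4.3.3 (lmFit, eBayes with a mean-variance trend, two-sided, Benjamini-Hochberg over all genes tested), so fold changes of low genes are understated. The fit was tested on simulated data. No pair of libraries differed in fewer than 26342 genes. Alternatives were no trend, quantile normalization, scaling to the nuclear FPKM sum, a filter of 5 FPKM, no filter, a pseudocount of 0.1, a replicate block and leaving out each library.

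The genes and lists were chosen with earlier results of these data known. Named beside the 4 genes were called partners (at most 5 per list), 7 partners named whatever their values, loci of the same name, neighbours within 100 kb and the 5 genes most correlated with MRFAP1L1.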

Additional observations from a re-analysis of the deposited data

How the results depend on the processing

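The number of genes with an adjusted p below 0.05 in limma, 1076 (822 higher and 254 lower in LV-SNORA28), was 397 with no filter (32761 genes tested) and 510 with the replicate block, and leaving out 1 library gave 279 to 628. The smallest count came without LV-SNORA28 replicate 2. Quantile normalization, which moved the median over all genes from 0.0851 to -0.00127 on the log2 scale, split the calls into 451 higher and 375 lower, and scaling to the nuclear FPKM sum into 615 and 263. The runs without 1 library had fewer samples, and the run with no filter tested more genes. The cause of these shifts was not tested.

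Of the 67 partner genes, 1 was called under quantile normalization, with no filter and with the replicate block, and 1 (from 1 to 1) when any library was left out. ING1 was called under every alternative in which it was tested, with an adjusted p of 0.00647 to 0.0386 in limma, and its mean was below the filter of 5 FPKM. Under quantile normalization the adjusted p was 0.0741 for NAE1 and 0.122 for CUL1. CUL1 also lost its call without the mean-variance trend (0.0663), with nuclear scaling (0.0701), with no filter (0.0902) and with a pseudocount of 0.1 (0.0518), and NAE1 with no filter (0.077). ADAMTS7 passed only under quantile normalization (log2 fold change -0.40, adjusted p 0.0405).

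MRFAP1L1 had a log2 fold change of 1.21 under quantile normalization and 1.26 to 1.34 without 1 library. MRFAP1 ran from -0.794 to 0.0709 without 1 library, the highest value being that without LV-SNORA28 replicate 3. MORF4L1 and MORF4L2 kept their direction under every alternative run and passed the test in none, with adjusted p-values of 0.0802 to 0.255 and 0.164 to 0.5 in limma, and those of MRFAP1 were 0.35 to 0.746. Among genes that never passed the test, the sign of the log2 fold change turned under quantile normalization for KAT5 (-0.0831), HDAC2 (-0.011), ASH1L (-0.044), ENSG00000170846 (-0.0481) and CTSH (-0.0146), and with nuclear scaling for KAT5 (-0.0194). Without 1 library, values ran from -0.0665 to 0.054 for KAT5, -0.0938 to 0.186 for ASH1L, -0.0585 to 0.0308 for MRGBP, -0.0786 to 0.037 for NEDD8, -0.103 to 0.0371 for BLOC1S4 and -0.225 to 0.423 for PPP2R2C.

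Replicate numbers are shared between the groups, but deviations of same-numbered libraries correlated at -0.04, 0.09 and 0.01, and 2 of the 6 libraries correlated best with their own number, so the numbers were not taken as pairs. With the replicate block, NAE1 and CUL1 had adjusted p-values of 0.0509 and 0.0739 in limma.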
